A study of Mus musculus with 149 samples.

Results

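The 9 genes described here encode enzymes that make bile acids from cholesterol and join them to amino acids: Cyp7a1, Cyp8b1, Cyp27a1, Cyp7b1, Hsd3b7, Akr1d1, Amacr, Slc27a5 and Baat. They were taken by name from the deposited table, where all 9 were found among 20308 mouse genes. Their values were read in 149 single cells of 1 male wild-type C57BL/6 mouse aged 8 weeks. The liver was perfused to free its cells, low-speed spins enriched the hepatocytes, and single cells were caught on Fluidigm C1 chips with 3 trap sizes. There were 39 cells from the small chip (traps of 5 to 10 µm), 30 from the medium chip (10 to 17 µm) and 80 from the large chip (17 to 25 µm). All cells come from 1 animal and every chip counts as 1 sample, so nothing here has replicates, no p-value is given, and differences describe these cells alone.

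Hepatocytes make bile acids by a pair of routes. In the classic route Cyp7a1 places the first hydroxyl group on cholesterol and sets the pace of the pathway, and Cyp8b1 decides whether cholic acid is made. In the alternative route Cyp27a1 oxidises the side chain in mitochondria and Cyp7b1 hydroxylates the resulting oxysterols. Both routes share later steps in which Hsd3b7 and Akr1d1 rework the sterol rings, Amacr turns the side chain for peroxisomal shortening, and Slc27a5 and Baat activate bile acids and join them to taurine or glycine. The study's title concerns where single cells sit in the hepatic lobule, the unit through which blood flows from portal tracts (the periportal side) towards a central vein (the pericentral side). Synthesis through Cyp7a1 is known as a pericentral function of the liver.

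RefSeq promoter windows (GRCm38.p6, 250 bases before to 50 bases after the start site) were held for 4 of the 9 genes: Cyp8b1, Cyp27a1, Hsd3b7 and Akr1d1. The windows of Cyp8b1, Cyp27a1 and Akr1d1 are set side by side here. Between the pericentral and periportal ends of the large chip, described below, their log2 ratios of means were -0.20, 1.13 and 0.99 in turn. The median of Cyp8b1 was nevertheless higher at the pericentral end (234.3 against 150.7). In the small and medium chips Akr1d1 correlated negatively with column order. Capitals mark the motifs searched for on both strands: AGGTCA, the core of many nuclear receptor sites, CAAAGTCCA, an HNF4A element, and TATAAA, the TATA box.
Cyp8b1 (chr9:121916256-121916555, minus strand): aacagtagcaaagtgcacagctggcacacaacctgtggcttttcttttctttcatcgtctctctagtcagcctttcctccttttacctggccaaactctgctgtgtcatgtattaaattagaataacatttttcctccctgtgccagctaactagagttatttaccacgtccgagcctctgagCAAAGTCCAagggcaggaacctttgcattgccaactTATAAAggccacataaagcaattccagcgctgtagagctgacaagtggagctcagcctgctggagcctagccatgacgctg
Cyp27a1 (chr1:74713285-74713584, plus strand): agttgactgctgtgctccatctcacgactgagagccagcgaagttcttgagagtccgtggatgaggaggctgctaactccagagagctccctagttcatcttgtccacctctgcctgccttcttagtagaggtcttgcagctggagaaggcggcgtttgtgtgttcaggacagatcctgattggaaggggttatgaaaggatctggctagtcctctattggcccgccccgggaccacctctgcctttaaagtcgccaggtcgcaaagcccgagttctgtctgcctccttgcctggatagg
Akr1d1 (chr6:37529923-37530222, plus strand): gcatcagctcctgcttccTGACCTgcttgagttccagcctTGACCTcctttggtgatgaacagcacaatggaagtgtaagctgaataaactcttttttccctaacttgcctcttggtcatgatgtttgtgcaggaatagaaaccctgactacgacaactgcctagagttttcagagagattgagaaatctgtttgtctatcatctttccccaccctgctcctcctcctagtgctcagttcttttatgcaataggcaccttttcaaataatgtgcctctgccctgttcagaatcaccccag
The Cyp8b1 window held CAAAGTCCA at position -67 and TATAAA at position -31, with the start site counted as 0. CAAAGTCCA occurs in 0.475% and TATAAA in 13.6% of 32851 RefSeq promoter windows of this length. The Akr1d1 window held AGGTCA on its minus strand at positions -232 and -210, so the printed strand reads TGACCT, and 16.3% of windows hold this motif. The windows of Cyp27a1 and Hsd3b7 held none of the 3 motifs. A match describes the letters of a window and is no evidence of binding.

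The columns of the table stand in an order that mixes the chips. Its name mentions a method for ordering cells, and which genes set the order is not given in the sources used here. A member, or a gene of the landmark score described next, may therefore have been among them. The place of a column correlated with a landmark score, in which the mean z-score of 6 periportal genes is subtracted from that of 6 pericentral ones (none a member), at Spearman rho 0.82, 0.91 and 0.94 in the small, medium and large chips, so the last columns are the pericentral ones. The share of values taken by ERCC spike-ins, synthetic RNAs added to the lysis mix, had medians of 82.8%, 82.7% and 3.66% in the 3 chips. A high share goes with few genes seen, with medians of 3087, 2306.5 and 7389.5 genes above 0. Results are therefore also given for the 83 cells in which spike-ins took less than 50% of the values (12 small, 7 medium and 64 large), called mouse-rich here; the other 66 are called spike-in-rich. The mouse-rich cells were most frequent at the ends of the order, with 40 of the first 50 columns, 13 of the next 50 and 30 of the last 49. Of 6 genes used by every cell, at least 1 was listed at 0 in 53 of the 149 cells and in 5 of the 83, so a value of 0 can be a failed measurement. All cells carried at least 3 of 7 hepatocyte markers, but 5 of 39, 2 of 30 and 26 of 80 also carried at least 3 of 12 endothelial markers, and 12 of 39, 8 of 30 and 0 of 80 at least 3 of 9 macrophage markers. At least 3 of 6 bile duct markers were above 0 in 3 of 39, 0 of 30 and 22 of 80 cells, with summed levels of up to 41183.7 in the large chip, and the part of those cells in a result was not tested unless given. Among the 64 large-chip cells, 7 had summed values over 2 times the chip's median (the cells with large sums), and these often held the highest value of a member.

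Cyp7a1 was the member with a step along the order. It is a 6-exon protein-coding gene of chromosome 4 (6265612 to 6275633, minus strand, mm10). In the 64 mouse-rich large-chip cells, taken in 5 groups of 12 or 13 along the column order, the median was 0, 0, 0, 176.4 and 300.9 normalised units. The numbers of cells at 10 or more were 0 of 13, 2 of 13, 1 of 13, 13 of 13 and 12 of 12. The highest values were 0.61, 63.5 and 25.4 in the first 3 groups, and in the last 12 cells the lowest value was 153.5 and the highest 1046.7, so the last group lay above every cell of the first 3. Cyp2e1, a pericentral landmark, switched over the same columns, with medians of 15, 19.3, 62.6, 10051.6 and 16613.9. Cyp2f2, a periportal landmark, had medians of 4642.5, 4979.7, 4763.1, 18.9 and 4.92.

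**Figure D1:**
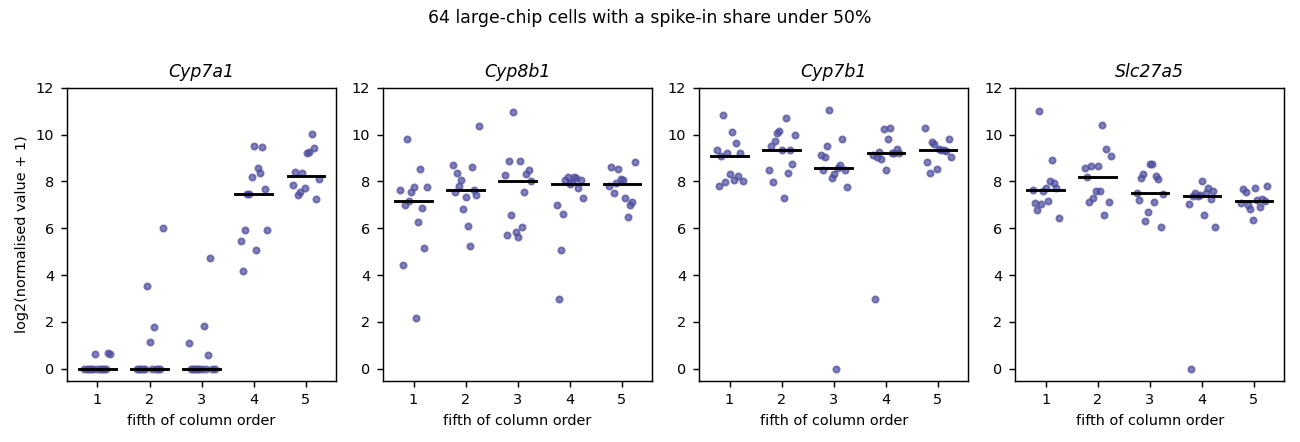
Values of Cyp7a1, Cyp8b1, Cyp7b1 and Slc27a5 as log2(normalised value + 1) in the 64 mouse-rich large-chip cells (spike-in share under 50%), in 5 groups along the column order (13, 13, 13, 13 and 12 cells); each point is a cell and each bar the group's median. Cyp7a1 steps up between groups 3 and 4 (176.4 in group 4, against 0 in group 3), while the other 3 genes overlap in all groups.

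Within the late 32 of these cells Cyp7a1 had a rho of 0.72 with column place, 0.74 with Cyp2e1 and 0.34 with Glul, the glutamine synthetase of the cells nearest the central vein. The late cells start at place 46, inside group 3 (places 35 to 103), so these values include the step and show no gradient after it. In these late cells Cyp7a1 was at 10 or more in 26 of 32 (median 181.4, highest 1046.7), against 2 of 32 early cells (median 0, highest 63.5). The 3 measures were taken in the same libraries and share their depth. Endothelial markers also differed along the order: at least 3 of 12 were above 0 in 18 of 32 late cells, against 7 of 32 early cells. Their summed level ran from 3.16 to 53528.6 in late cells (median 100.2) and from 0 to 1500.4 in early cells (median 51.8), with all 12 markers seen in both. In the cells with fewer than 3 of these markers Cyp7a1 was at 10 or more in 11 of 14 late cells (median 205.6), against 2 of 25 early cells (median 0). Bile duct markers differed the other way, with at least 3 of 6 above 0 in 6 of 32 late cells, against 16 of 32 early cells. Their summed level ran from 0 to 41183.7 in late cells (median 14.7), where Krt19 and Epcam were at 0, and from 8.76 to 28186.0 in early cells (median 95.1). In cells with fewer than 3 markers of either list Cyp7a1 was at 10 or more in 9 of 10 late cells (median 268.2), against 1 of 12 early cells (median 0).

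The ends of the landmark score, which uses no member, showed the same contrast. In the large chip this score had a rho of 0.94 with column place, so the score and the order are not independent measures of position. The 16 pericentral cells of the large chip held 17.1 to 1046.7 units of Cyp7a1, against 0 to 63.5 in the 16 periportal cells, where the median was 0. Large-chip cell 64, 1 of the cells with a large sum, carried all 12 endothelial markers. It held the lowest pericentral value of every member but Akr1d1, here and in the ranges given below. Of the pericentral cells 16 of 16 were at 10 or more, against 2 of 16 periportal cells. The means were 339.2 ± 268.6 and 4.93 ± 15.9 (SD over 16 cells each), a log2 ratio of 5.84 with a pseudocount of 1, and the low value of the periportal cells makes this ratio depend on the pseudocount. The highest periportal value, 63.5, was in large-chip cell 53, 1 of the cells with a large sum; without those cells the log2 ratio was 7.51 (15 and 13 cells).

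In the other chips the pattern of Cyp7a1 was weaker. In the small chip its late 19 cells had 0 to 868.0 units with a median of 14.98, against 0 to 97.2 with a median of 1.46 in the early 20 cells, and the groups overlapped. In the medium chip both the late and the early 15 cells had a median of 0, with highest values of 290.6 in the late cells and 752.6 in the early cells. Its rho with column place was 0.47, 0.14 and 0.72 in the small, medium and large chips (mean 0.44 ± 0.29, SD over 3 chips), and 0.64, 0.40 and 0.80 in mouse-rich cells. With the landmark score it was 0.28, 0.032 and 0.66, and on that score, without the large chip, the gene did not meet the rule described next.

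**Figure D2:**
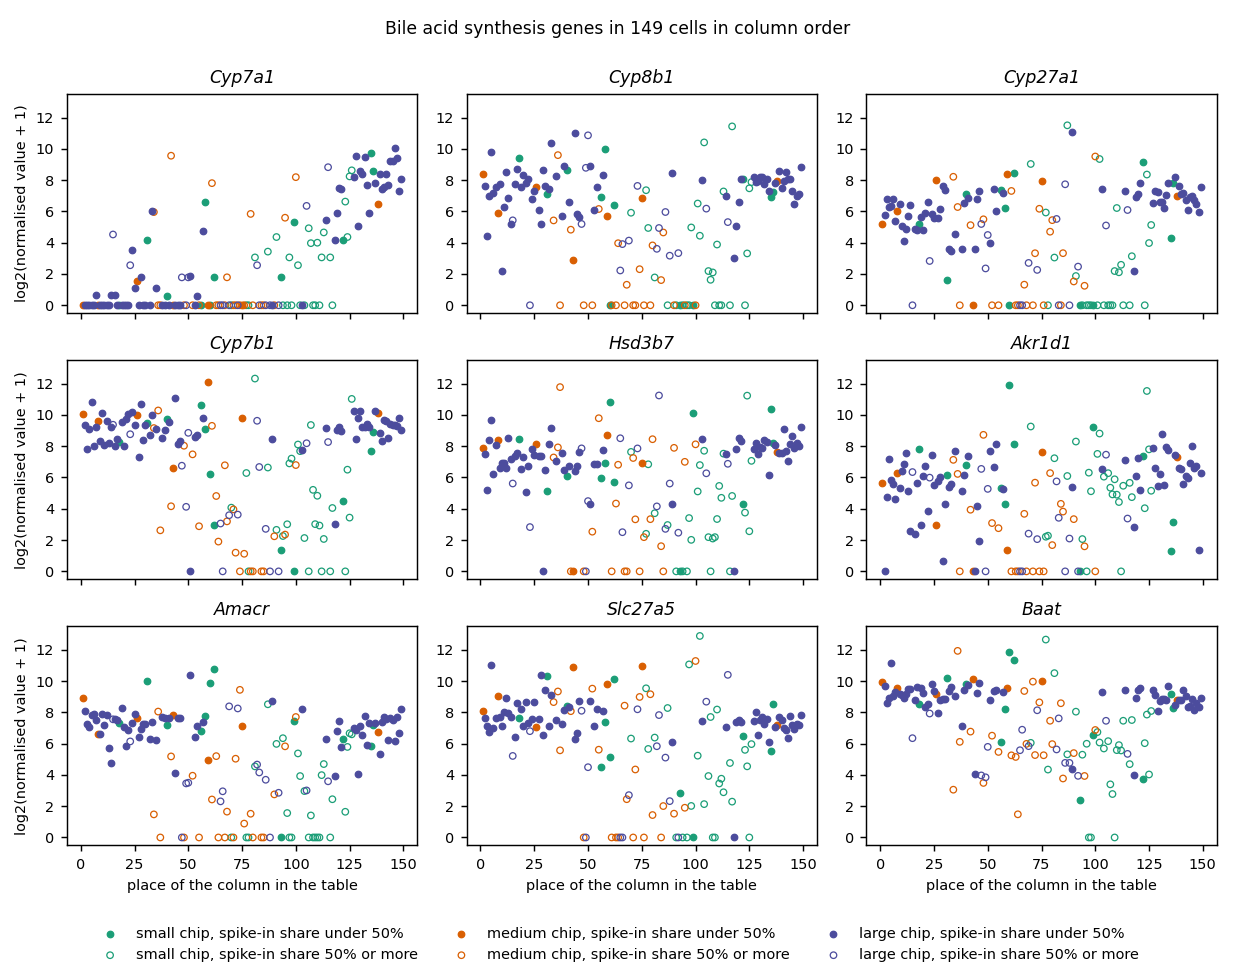
Values of the 9 genes as log2(normalised value + 1) in each of 149 cells against the place of the cell's column in the table; colour gives the chip, and filled and open points give a spike-in share under 50% and of 50% or more. Filled large-chip points of Cyp7a1 lie near 0 in the first columns and between 153.5 and 1046.7 normalised units in the last 12, while the other genes are present at both ends.

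A gene is called graded here when its rho with position kept 1 sign over the 3 chips with a mean of 0.2 or more in size, which sets a size and tests nothing. Along the column order 1 member was graded to the late, pericentral side (Cyp7a1), 2 to the early, periportal side (Slc27a5 and Baat), and 6 met neither rule. Of the 8813 genes above 0 in at least 20% of cells, which include all 9 members, 0.692% were graded late and 15.4% early. The members' median rho was -0.096, against -0.10 over all these genes. In mouse-rich cells the late members were Cyp7a1 and Cyp27a1 and the early ones Amacr and Baat, where 5.45% of all genes were graded late and 12.5% early. There the rule rests on 12 small-chip and 7 medium-chip cells. With the landmark score 1 member was graded pericentral, Cyp7a1, and 3 periportal, Amacr, Slc27a5 and Baat, against 0.613% and 16.5% of all genes. In mouse-rich cells that score gave 2 pericentral (Cyp7a1 and Cyp27a1) and 2 periportal (Amacr and Baat) members, against 6.23% and 11.4% of all genes.

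**Figure D3:**
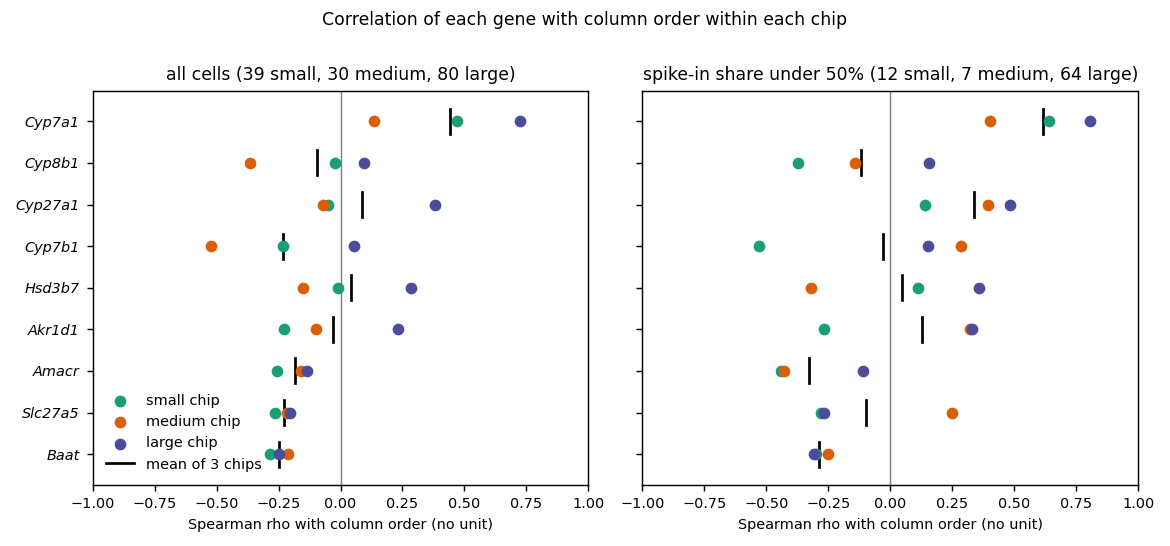
Spearman rho of each gene with column order in the small, medium and large chips (points) and its mean over the 3 chips (bar), over all cells (left) and over mouse-rich cells, with a spike-in share under 50% (right). Cyp7a1 is positive and Amacr and Baat negative in every chip in both panels, while the chips differ in sign for Cyp8b1, Cyp7b1, Hsd3b7 and Akr1d1 in both.

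Cyp8b1, the enzyme that directs the classic route to cholic acid, did not share the step of Cyp7a1. It is a single-exon gene (chromosome 9, 121914356 to 121916305, minus strand, mm10). Along the 5 groups of large-chip cells its medians were 141.2, 196.5, 259.5, 239.0 and 234.3 units. It was above 0 in 64 of 64 of these cells, from 3.49 to 2027.4, and the groups overlapped. At the pericentral end it ran from 7.00 to 452.1 (median 234.3), against 3.49 to 1320.1 at the periportal end (median 150.7). The log2 ratio of the means was -0.20, and 0.71 without the cells with large sums, so the direction of the mean rested on periportal cells 24 and 53 with 902.1 and 1320.1 units. The cells left out were 24, 53 and 75 at the periportal end and 64 at the pericentral end. Its rho with column place was -0.021, -0.36 and 0.095 in the 3 chips.

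The enzymes of the alternative route differed from each other. Cyp27a1 (9 exons, chromosome 1, 74713574 to 74737892, plus strand) was higher at the pericentral end, with 3.50 to 298.1 units and a median of 122.1, against 10.2 to 110.1 and a median of 57.3 at the periportal end. The ranges overlapped, and the log2 ratio of the means was 1.13. Over all genes 14.3% reached a log2 ratio of 1 between these ends and 22.8% a ratio of -1. Along the 5 groups its medians were 52.5, 48.7, 107.9, 132.0 and 122.1, so it was higher from group 3 on. Its rho with column place was -0.049, -0.071 and 0.38 over all cells, and 0.14, 0.39 and 0.48 in mouse-rich cells. Its highest value, 2189.2, was in large-chip cell 7, which carried all 12 endothelial markers.

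Cyp7b1 (6 exons, chromosome 3, 18071950 to 18243338, minus strand) had similar medians at both ends of the large chip. Along the 5 groups of mouse-rich cells its medians were 540.8, 656.5, 384.5, 592.3 and 647.9. Over all 80 cells its rho with column place was 0.054. In the late 32 mouse-rich cells, which include part of group 3, its rho was 0.44 with place and 0.53 with Cyp2e1. In the early 32 its rho with place was 0.16. At the pericentral end it had 7.00 to 1233.7 units (median 637.4), against 225.9 to 1839.3 at the periportal end (median 628.4), a log2 ratio of the means of -0.34 and of 0.11 without the cells with large sums. In the other chips its rho was -0.23 (small) and -0.52 (medium), and in the medium chip its median was 3.73 in the late 15 cells, against 260.2 in the early 15 cells. Within the 7 mouse-rich medium-chip cells the rho was 0.29, so its sign differed from that over all 30 cells.

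The ring-modifying enzymes had a positive rho with column place in the large chip and a negative one in the small and medium chips. Spike-in share was split in the opposite way, rising with column place in the small and medium chips (rho 0.27 and 0.37) and falling in the large chip (-0.37). Its part in these signs was not tested. Akr1d1 (9 exons, chromosome 6, 37530173 to 37568815, plus strand) had 1.58 to 438.4 units at the pericentral end (median 96.1), against 4.90 to 172.1 at the periportal end (median 52.4), overlapping, with a log2 ratio of the means of 0.99. Its rho with column place was -0.23, -0.099 and 0.23. Within the late 40 cells of the large chip its rho was 0.43, but within the late 32 mouse-rich ones 0.051. Hsd3b7 (7 exons, chromosome 7, 127800604 to 127803802, plus strand) had 0 to 603.6 units at the pericentral end (median 248.7), against 33.2 to 829.3 at the periportal end (median 154.0). Its log2 ratio of 0.24 became 0.86 without the cells with large sums, since cells 24 and 53 held 829.3 and 560.7 units. Its medians along the 5 groups were 142.2, 165.8, 114.3, 239.8 and 261.7, and its rho with column place was -0.0085, -0.15 and 0.29 in the 3 chips, and 0.45 within the late 32 cells. Other annotated genes, 9430064I24Rik and Gm49388, overlap 1717 bases of the exons of Hsd3b7, so reads of these may be counted with it and its value is uncertain.

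Amacr, the racemase of the side chain, and the conjugating enzymes Slc27a5 and Baat had a negative rho with column place in every chip. So did the median of all 8813 genes, at -0.11, -0.18 and -0.026 in the small, medium and large chips, and in the medium chip Amacr lay above this median and Slc27a5 and Baat close to it. Baat (4 exons, chromosome 4, 49489422 to 49506557, minus strand), which joins the bile acid to taurine or glycine, had 15.2 to 805.0 units at the pericentral end (median 437.9), against 319.3 to 2316.8 at the periportal end (median 648.2). The log2 ratio of the means was -0.73, and -0.40 without the cells with large sums. Along the 5 groups its medians were 565.6, 598.9, 615.1, 472.4 and 410.7, and its rho with column place was -0.29, -0.21 and -0.25, close to each other over the chips (mean -0.25 ± 0.036). It was the only member graded early over all cells, in mouse-rich cells, and with the number of genes above 0 held constant (mean -0.23).

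Slc27a5 (10 exons, chromosome 7, 12988346 to 12998192, minus strand), the ligase that activates bile acids before conjugation, had 0 to 225.8 units at the pericentral end (median 144.1), against 107.8 to 2068.8 at the periportal end (median 234.6). The log2 ratio of the means was -1.56, and -0.52 without the cells with large sums, of which cells 24, 75 and 53 held 2068.8, 1342.4 and 545.4 units. Its rho with column place was -0.26, -0.21 and -0.20 over all cells, but 0.25 in the 7 mouse-rich medium-chip cells. Amacr (5 exons, chromosome 15, 10981756 to 10996626, plus strand) had 14.5 to 301.8 units at the pericentral end (median 157.7), against 26.5 to 302.4 at the periportal end (median 159.8). Its rho with column place was -0.26, -0.16 and -0.14, and in the late 19 cells of the small chip its median was 6.81, against 71.2 in the early 20 cells. Spike-in share rose with column place in that chip (rho 0.27). The median of Amacr there was 151.4 in mouse-rich and 2.12 in spike-in-rich cells. Within the mouse-rich small-chip cells it was 111.4 in the late 6, against 188.9 in the early 6. With the number of genes above 0 held constant the means of Slc27a5 and Amacr were -0.13 and -0.093.

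Between the last and the first 16 large-chip cells of the column order the members divided 3 to 1. Cyp7a1 (means of 382.6 and 1.48, log2 7.27), Cyp27a1 (135.1 and 54.8, log2 1.29) and Akr1d1 (133.6 and 56.3, log2 1.23) were at least 2-fold higher in the last cells, and Slc27a5 (153.8 and 323.1, log2 -1.07) at least 2-fold lower. Over all genes 7.44% were at least that much higher and 21.9% lower, and the median log2 ratio was -0.36. Without the cells with large sums Slc27a5 had -0.46 and was not called. The low mean of Cyp7a1 in the first cells rested on 1 spike-in-rich cell with 22 units, and its ratio depends on the pseudocount; in mouse-rich cells its means were 401.6 and 0.13 (log2 8.47). There Akr1d1 had 0.75 and was not called, and 2 members were higher and 1 lower, against 7.42% and 29% of all genes.

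The routes were then set against each other inside each cell, as the mean z-score of Cyp7a1 and Cyp8b1 minus that of Cyp27a1 and Cyp7b1. The difference was higher in later columns in every chip, with rho of 0.46, 0.35 and 0.52 (mean 0.44 ± 0.085, SD over 3 chips), and along the landmark score with 0.31, 0.35 and 0.53. In the 64 mouse-rich large-chip cells its medians over the 5 groups were -0.48, -0.46, -0.40, 0.34 and 0.43. It was above 0 in 1 of 13, 4 of 13, 3 of 13, 8 of 13 and 11 of 12 of these cells. In that chip both routes had positive rho with place, 0.57 for the classic and 0.35 for the alternative genes, so the difference is one of degree there. In the small chip the routes had 0.25 (classic) and -0.18 (alternative), and in the medium chip -0.17 (classic) and -0.32 (alternative). Among mouse-rich cells the medium chip gave 0.036 (7 cells) and the small chip 0.51 (12 cells). Cyp7a1 minus Cyp7b1 alone gave 0.58, 0.57 and 0.74 over all cells, above the difference with all 4 genes in each chip. The other pair did not follow. Between the last 12 and first 13 mouse-rich large-chip cells Cyp8b1 had a log2 ratio of means of 0.28, against 1.13 for Cyp27a1. The difference therefore holds the step of Cyp7a1 and is no rise of both classic genes over both alternative ones. Classic and alternative scores had rho of 0.39, 0.58 and 0.55 with each other over all cells, where cells differ more in the number of genes seen. In mouse-rich cells this rho was 0.46, 0.21 (7 cells) and 0.43. The scores come from the same libraries and share their depth, so these values cannot tell whether the routes oppose each other.

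**Figure D4:**
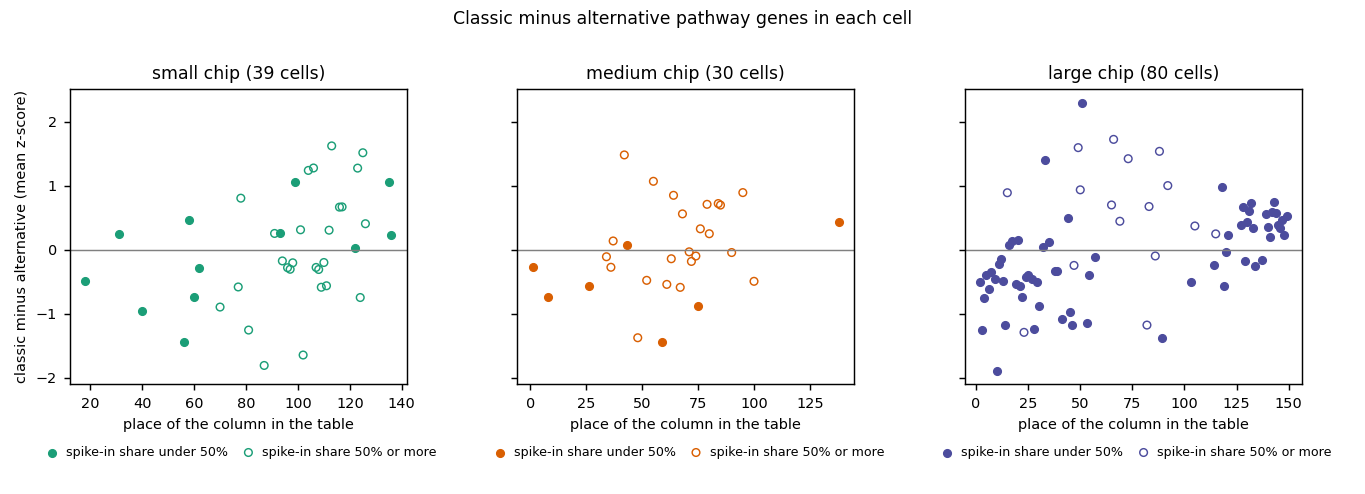
Mean z-score of the classic genes (Cyp7a1, Cyp8b1) minus that of the alternative genes (Cyp27a1, Cyp7b1) in each cell against column place, in the small, medium and large chips; filled and open points give a spike-in share under 50% and of 50% or more. In the large chip 11 of the last 12 filled points lie above 0, and 1 of the first 13.

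Levels were compared between genes only per kilobase of the longest principal transcript. In the 64 large-chip cells the medians per kilobase ran in the order Cyp7b1 (271.8), Baat (269.4), Cyp8b1 (105.0), Hsd3b7 (100.6), Slc27a5 (78.8), Amacr (60.1), Cyp27a1 (49.2), Akr1d1 (24.1) and Cyp7a1 (0.21). The interquartile ranges of neighbours overlapped everywhere but between Baat and Cyp8b1. In the last 12 of these cells Cyp7a1 stood at rank 5 with 72.1 units per kilobase (quartiles 48.5 and 143), and its range overlapped those of its neighbours in the order, Cyp8b1 (120.1) and Amacr (68.4). In the first 13 it was last, with a median of 0.

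By chip, Cyp7a1 was above 0 in 24 of 39 small-chip cells (61.5%, with an exact 95% interval of 44.6 to 76.6). It was above 0 in 9 of 30 of the medium chip (30.0%, interval 14.7 to 49.4) and in 43 of 80 of the large chip (53.8%, interval 42.2 to 64.97). These intervals cover the counting of cells only, and the read depth behind a value is unknown. Cyp8b1 was above 0 in 26 of 39, 17 of 30 and 79 of 80 cells, and Baat in 36 of 39, 30 of 30 and 80 of 80. The median of Cyp8b1 was 20.8, 3.00 and 183.2 units in the 3 chips, that of Cyp7b1 27.5, 22.02 and 528.9, and that of Baat 66.1, 98.8 and 460.9. The medians of the other 5 genes apart from Cyp7a1 were highest in the large chip for Cyp27a1 (71.7), Hsd3b7 (168.4), Akr1d1 (53.1), Amacr (139.3) and Slc27a5 (170.1). This order holds over all cells, where 64 of 80 large-chip cells but 12 of 39 and 7 of 30 of the others were mouse-rich. In mouse-rich cells the medium chip had the highest median of Cyp27a1 (54.5, 124.7 and 93.1 in the small, medium and large chips), Hsd3b7 (94.6, 236.6 and 183.9), Slc27a5 (128.4, 527.5 and 180.2), Cyp7b1 (260.9, 1012.7 and 588.7) and Baat (339.6, 751.7 and 523.0). The small chip had the highest of Akr1d1 (91.0, 48.6 and 64.9) there, and the large chip those of Cyp8b1 (130.2, 117.0 and 204.8) and Amacr (151.4, 141.3 and 154.9). These medians were not rescaled, and the summed values of mouse-rich cells differed. Medium-chip cells 10, 18 and 21 had sums of 4570096.1, 5014811.2 and 5662562.4, and cells 12, 13 and 15 of 1833310.7 to 1927011.7. The median sum over all large-chip cells was 1817207.7. Large sums were also present among the mouse-rich small-chip cells, as in cell 36 (4813959.7). Single cells carried much of the means. Akr1d1 averaged 77.8 units in the large chip and 282.4 in the small chip, a log2 ratio of -1.85, but 2 of the 39 small-chip cells (3932.8 and 2955.2 units) held 62.5% of its sum, and without the 2 highest cells of each chip the ratio was -0.65.

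At a log2 ratio of means of at least 1 in size, 0 members were higher and 2 lower in the medium than in the small chip (Cyp8b1 at -1.64 and Akr1d1 at -2.65), where 27.7% and 23.3% of all genes were called. In the large against the small chip 0 were higher and 1 lower (Akr1d1), where 41.9% and 12.8% of all genes were called. In the large against the medium chip 2 were higher (Cyp8b1 at 1.87 and Cyp7a1 at 1.09) and 0 lower, where 37.5% and 12.7% were called. The median log2 ratio of all genes was 0.11, 0.72 and 0.59 in these comparisons. In mouse-rich cells 2 members were higher and 3 lower in the medium than in the small chip (26% and 30.4% of all genes), 0 and 3 in the large than in the small chip (26.7% and 25%), and 1 and 2 in the large than in the medium chip (24.8% and 17.3%). With these cells rescaled to 1 mouse-gene sum the counts were 2 and 2, 0 and 1, and 1 and 1. The shares of all genes were not computed for the rescaled values. The chips differ in trap size and in spike-in share together, and these cannot be told apart. The labels give no capture run or batch for a chip, so a part of these cannot be told apart either. No cell size was measured.

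Spike-in-rich cells had lower values of most members than mouse-rich cells of the same chip, as most genes did. The median log2 ratio of all genes was -2.04, -1.24 and -1.80 in the small, medium and large chips. At least 2-fold lower were 5, 6 and 6 members in the 3 chips, against 69%, 54.4% and 66.2% of all genes. At least 2-fold higher were 0, 1 and 0 members, against 5.4%, 13.8% and 5.56% of all genes. In the large chip Baat had a median of 51.4 units in the 16 spike-in-rich cells, against 523.0 in the 64 mouse-rich cells (log2 ratio of the means -2.61). Cyp27a1 had a median of 5.03 in these 16 cells, against 93.1 in the 64. Hsd3b7 had a log2 ratio of 0.12, and its mean in the 16 cells rested on large-chip cell 30 with 2419.6 units, the next being 362.9. In the medium chip Cyp7a1 had 2.20, with a highest value of 752.6 in the 23 spike-in-rich cells (cell 11) and of 87.4 in the 7 mouse-rich cells.

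The members correlated weakly with each other. Over the 36 pairs in the 64 mouse-rich large-chip cells, rho ran from -0.20 to 0.52 with a median of 0.12, and 30 pairs were positive. Cyp7a1 had 0.52 with Hsd3b7, 0.39 with Akr1d1, 0.30 with Cyp27a1 and 0.28 with Cyp7b1, and 0.14 with Cyp8b1, its partner in the classic route. Slc27a5 and Baat, the successive steps of conjugation, had 0.38, and each was below 0 with Cyp7a1 (-0.12 and -0.20). Over all cells the median over pairs was 0.33, 0.32 and 0.27 in the 3 chips, where cells differ more in the number of genes seen.

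**Figure D5:**
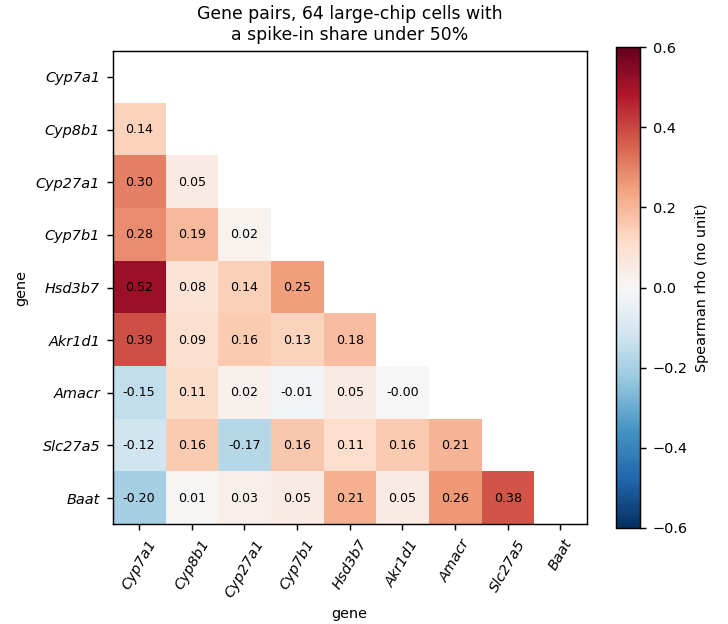
Spearman rho between each pair of the 9 genes across the 64 mouse-rich large-chip cells (spike-in share under 50%). The highest value is 0.52 (Cyp7a1 and Hsd3b7) and the lowest -0.20 (Cyp7a1 and Baat).

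The genes most like Cyp7a1 across these 64 cells, among genes that are no member and above 0 in at least 20% of all cells, were Mup15 (rho 0.84), Fitm1 (0.83), Plbd1 (0.82), Cyp1a2 (0.81) and Tbx3 (0.81). Cyp1a2 is a pericentral landmark and a drug-metabolising enzyme, and Mup15 belongs to a family of near-identical genes whose reads may be split. Those most like Cyp7b1 were Atp13a3 (0.51), Nudt12 (0.47), Saa4 (0.46), Ang (0.44) and Ppm1k (0.41), so its nearest gene was much less alike than any of the 5 of Cyp7a1.

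Of 17 further genes of bile acid synthesis 14 were measured in at least 20% of cells; Cyp46a1, Ch25h and Star were not. Along the column order 0 were graded late and 4 early: Cyp39a1, a hydroxylase of oxysterols made in the brain (mean rho -0.46 ± 0.097), Scp2, a thiolase that shortens the side chain (-0.36 ± 0.23), Slc27a2, a ligase that activates its precursors (-0.29 ± 0.053), and Acot12, a thioesterase (-0.27 ± 0.22), against 0.692% and 15.4% of all genes. In mouse-rich cells 2 were graded late, Akr1c6 (0.56) and Acaa1b (0.37), and 2 early, Cyp39a1 and Slc27a2, against 5.45% and 12.5% of all genes. On the landmark score 0 were graded pericentral and 5 periportal over all cells, where 0.613% and 16.5% of all genes were. Akr1c6, Acaa1b and, among the regulators, Nr1i2 and Prox1 are named after their values were seen. Of the regulators of these genes 13 were measured. Along the column order 0 of 13 were graded in either direction over all cells, but on the landmark score 3 were graded periportal: Nr1h4, the bile acid receptor (-0.24), Hnf4a, a master factor of hepatocytes (-0.22), and Prox1, a homeobox factor (-0.23), against 16.5% of all genes. In mouse-rich cells 4 were graded early on the column order, against 12.5% of all genes: Nr1h4 (-0.33), Nr0b2, the repressor that Nr1h4 induces (-0.25), Hnf4a (-0.20) and Nr1i2, a xenobiotic receptor (-0.26). In the 64 large-chip cells Nr1h4 and Nr0b2 had -0.080 and -0.013.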

How the data were processed

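RNA of 149 single cells from 1 mouse was read. Per the submitters' processing notes the authors used CASAVA 1.8.2, Bowtie 0.12.9 and RSEM 1.2.3 on mm10, and the deposited values are a normalised signal, RSEM's expected counts after normalisation, in 1 table of 20400 entries (92 ERCC spike-ins). The table's name mentions SCnorm, a normalisation, and WaveCrest, an ordering of cells; the labels describe neither, and read depth is unknown. All columns were mapped by title, 0 pairs were identical, and no doublet caller was run.

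Spearman rho was taken within each chip, with mean and SD over 3 chips. Scores used z-scores of log2(value + 1) within a chip; ratios of means used a pseudocount of 1. Genes above 0 in at least 20% of cells (8813) formed the background. Shares carry exact Clopper-Pearson 95% intervals. Positions and lengths are from GENCODE release M21, promoters from RefSeq. The rules were run on values shuffled among cells gene by gene, with known effects planted. The shuffle removes what genes share within a cell, such as depth, so that run cannot show how the rules behave with it. Figures were drawn with matplotlib 3.10.9, and statistics came from scipy 1.17.1 with numpy 2.4.6 and pandas 2.3.3, under Python 3.11.15. Besides the 9 members, the text names the 12 landmarks, up to 5 genes each of the further pathway and regulator lists with the largest mean rho in size, and the 5 genes most like Cyp7a1 and Cyp7b1, unless it says otherwise. Members and lists were chosen with earlier results of these data known.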

Additional observations from a re-analysis of the deposited data

How the results depend on the processing

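Of 114 recomputed counts and pathway values 83 stayed near the reported one and 31 moved, and of 243 values of single genes 209 stayed and 34 moved. These labels do not track sign, since a count has none and a reversal was scored only for called values. The mean rho with column order kept its sign in 5 of 10 alternatives for Akr1d1, 6 for Hsd3b7, 7 for Cyp27a1 and 9 for Cyp8b1. On the landmark score these genes kept it in 6, 5, 8 and 10 of 11. The other members kept it in all alternatives on both measures. Along column order, in place of 1 graded late and 2 early, 2 were late in mouse-rich cells and with the number of genes above 0 held constant (then 1 early), and 4 were early with Pearson r (14.52% of all genes), without the large chip (31.35%), and without cells with endothelial or macrophage markers (41.62%). Leaving out cells with bile duct markers too, added after seeing the data, gave 5 early (25.92%). On the landmark score, in place of 1 pericentral and 3 periportal, 2 were pericentral in mouse-rich cells and 0 without the large chip, and 1 was periportal with the number of genes above 0 held constant and with Cyp2e1 minus Cyp2f2 as the score; 4 were periportal with Pearson r (9.77% of all genes), without the large chip (30.17%), and without cells with endothelial or macrophage markers (37.8%) or with bile duct markers too (23.78%). The classic minus alternative difference moved only with Cyp7a1 minus Cyp7b1 alone (0.63 with column order, 0.58 with the score). The cause of these shifts was not tested.

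Chip counts moved most. Mouse-rich cells gave 2 higher (medium over small), 3 lower (large over small), and 1 higher and 2 lower (large over medium). Rescaling cells to 1 sum gave 3 lower (large over small), and 1 higher and 2 lower (large over medium). A pseudocount of 10 gave 1 higher (large over medium). Medians gave 3 higher and 4 lower (medium over small), 7 higher (large over small) and 6 higher (large over medium). The share of all genes was not computed for rescaled cells, a pseudocount of 10, medians or cells left out. The members' counts there cannot be read against all genes. For the means over all cells as reported, with all 20308 genes as background, 15.3% and 14.3%, 23.9% and 8.78%, and 22.4% and 8.34% were called higher and lower in the same 3 comparisons. Added after seeing the data, leaving out cells with large sums gave 1 lower (large over medium), and leaving out the 2 highest cells of each gene 2 higher and 0 lower (large over small) and 5 higher (large over medium). Between the ends of the column order 0 were lower with 4 groups or without cells with large sums. No paired analysis was possible because the numbers only name cells. Read depth is unknown, so low values and zeros could not be given a counting error.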
